A study of Mus musculus with 8 samples.

Results

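The AP-1 family studied here is the set of 10 genes Fos, Fosb, Fosl1, Fosl2, Jun, Junb, Jund, Atf3, Batf and Maff, taken from the count table by gene symbol. All 10 were found among the 55414 Ensembl genes of the count table. The RNA came from Kupffer cells, macrophages that live in the sinusoids of the liver, sorted by flow cytometry 2 h after surgery. One group had caecal ligation and puncture (CLP), which lets gut bacteria into the abdomen and serves as a model of sepsis, and the control group had sham surgery (Sham). Both groups were wild-type C57BL/6J mice, with 4 libraries each. The sources used here give neither age nor sex, nor the antibodies of the sort. Nothing in the labels ties each library to a separate animal, and the p-values therefore reflect only how these libraries vary, which may be technical.

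AP-1 is a dimeric transcription factor. Its subunits are basic leucine zipper (bZIP) proteins: a zipper of regularly spaced leucines pairs 2 partners, and the basic region next to it grips DNA. JUN proteins pair with themselves or with FOS proteins, while FOS proteins cannot form stable pairs with themselves. ATF3, BATF and MAFF lack the strong activation domains of FOS and JUN, and which subunits are present decides which sites a dimer binds and how strongly it activates. In macrophages, AP-1 acts with NF-kB downstream of Toll-like receptors, and Fos and Jun are classic immediate early genes whose mRNAs rise within minutes of a stimulus and are quickly degraded.

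Libraries held 23311897 to 28724875 counts, and depth did not separate the groups (p = 0.743 by a two-sided exact permutation test). Levels are CPM, the counts of a gene relative to those of its library, after scaling by the trimmed mean of M-values (TMM), with factors of 0.801 to 0.837 in CLP and 1.16 to 1.28 in Sham. With this scaling 45.8% of all calls were upward, against 17.1% with scaling by total counts, which lowers the median log2 fold change of all genes to -0.60. The second principal component, with 9.99% of the variance, set CLP replicate 1 off from the 3 others of its group, and results that rest on it are also given without it. Of 9 Kupffer cell markers, all were tested, 2 were higher and none lower, and their summed level was 31060 to 39790 CPM in CLP, against 24250 to 31500 CPM in Sham. The most abundant, the lectin Clec4f, had a log2 fold change of 0.27 ± 0.13 (SE; edgeR adjusted p = 0.0999), which turned to -0.28 with scaling by total counts.

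Markers of other cells were also present. All 7 neutrophil markers tested, of 9, were higher in CLP, with a summed level of 199 to 553 CPM in CLP, against 82.4 to 119.8 CPM in Sham, and Ly6g and Camp were at 0 counts in every Sham library. The most abundant were Csf3r at 246.5 CPM in CLP, against 99.2 CPM in Sham, and S100a9 at 62.2 CPM in CLP, against 1.32 CPM in Sham. All 5 platelet markers tested, of 6, were higher, at 117.8 to 192 CPM in CLP, against 15.2 to 27.8 CPM in Sham, and Gp1bb was at 0 throughout, while Pf4 led with 147.9 CPM in CLP, against 18.1 CPM in Sham. Of 5 B cell markers 4 were higher and 1 lower, at 10.9 to 16.3 CPM in CLP, against 7.04 to 12.31 CPM in Sham. Of 6 sinusoidal endothelial markers 4 were higher, at 2154 to 2621 CPM in CLP, against 1438 to 1795 CPM in Sham. Hepatocyte markers summed to 3121 to 4394 CPM in CLP, against 2246 to 3104 CPM in Sham, with 1 of 5 higher, and stellate cell markers to 41.8 to 60.4 CPM in CLP, against 32.4 to 40.1 CPM in Sham, with 2 of 5 higher. Monocyte markers summed to 202 to 338 CPM in CLP, against 156 to 263 CPM in Sham, with neither of the 2 tested past the threshold. Plac8 alone made up nearly all of this sum, at 263.7 CPM in CLP, against 204.7 CPM in Sham. None of 6 T and NK cell markers had enough counts to be tested. Both erythroid markers tested, of 5, were higher, but the sum was only 8.20 to 14.3 CPM in CLP, against 3.35 to 8.99 CPM in Sham. Among all genes tested, 24.9% were higher and 29.5% lower. Under 1 CPM in Sham on average were 3 of the neutrophil markers tested, 2 platelet, 4 B cell and 1 erythroid marker. Such genes can pass the filter on low counts through their CLP libraries alone, which makes a rise the likelier call. The part of these other cell types in the results below was not tested, and in bulk RNA fewer cells of a type and less RNA per cell cannot be told apart.

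To show what lies just upstream of genes that moved in opposite directions, the last 100 bases before the RefSeq transcription start (build GRCm38.p6, earlier than the mm39 of the counts) are printed for Fos and Jun, which fell, and for Fosl2, Atf3, Batf and Maff, which rose. Capitals mark the core of the cAMP response element (TGACGT, which reads as its complement where it lies on the other strand), the palindrome to which JUN and ATF dimers bind (TGANNTCA) and the TATA box (TATAAA). The first 2 of these motifs were chosen after the sequences had been read. The lines give chr12:85473790-85473889 (+) for Fos, chr4:95052223-95052322 (-) for Jun, chr5:32136372-32136471 (+) for Fosl2, chr1:191183334-191183433 (-) for Atf3, chr12:85686620-85686719 (+) for Batf and chr15:79347420-79347519 (+) for Maff, the second of its 3 RefSeq starts.
Fos: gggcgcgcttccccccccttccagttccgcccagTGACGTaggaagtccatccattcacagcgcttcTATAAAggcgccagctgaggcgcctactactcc
Jun: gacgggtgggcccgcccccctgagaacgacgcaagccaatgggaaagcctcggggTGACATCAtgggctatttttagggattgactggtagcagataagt
Fosl2: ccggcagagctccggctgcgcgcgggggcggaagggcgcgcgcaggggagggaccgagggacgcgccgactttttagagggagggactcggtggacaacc
Atf3: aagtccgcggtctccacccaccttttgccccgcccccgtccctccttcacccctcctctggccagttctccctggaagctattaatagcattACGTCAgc
Batf: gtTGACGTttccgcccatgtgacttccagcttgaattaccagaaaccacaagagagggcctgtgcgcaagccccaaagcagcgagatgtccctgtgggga
Maff: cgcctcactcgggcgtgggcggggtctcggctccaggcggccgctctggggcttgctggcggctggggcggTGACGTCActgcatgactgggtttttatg

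The promoter table held 9 of the 10 members, all but Fosl1, in 11 windows of 300 bases (250 before the start and 50 after). A member was counted where any of its windows matched, while the percentages are per window. On either strand, TGACGT was found for 4 of the 9, Fos, Atf3, Batf and Maff, and in 7.51% of all 32851 windows of that length. In Maff it is part of the full element TGACGTCA, which 1.79% of windows hold. Only the second Maff start, the one printed, has it. The window of the first start held none of the motifs searched, and that of the third held TGACATCA, GGGCGG and an NF-kB match. TGANNTCA, which overlaps the full element, was found for 3 members, Jun, Jund and Maff, and in 14.1% of windows. Within these windows, the AP-1 site TGACTCA and the CArG box bound by SRF were found for 0 members. They occurred in 5.20% and 1.63% of all windows. Bases farther upstream were not searched, so sites there would be missed. The NF-kB motif was found for 4 members, Fos, Fosb, Fosl2 and Maff, and in 4.51% of windows. Counted by window, TGACGT, TGANNTCA and the NF-kB motif were each in 4 of the 11. TATAAA was found for 2 members, Fos and Junb, and in 13.6% of windows, GGGCGG for 7 members and in 35.7%, and CCAAT for 3 members and in 37.4%. The TGACGT match is thus in a gene that fell and in 3 that rose, and these matches describe letters, not bound sites.

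Across the family, the prototype subunits Fos and Jun fell, while Fosl1, Fosl2, Junb, Atf3, Batf and Maff rose, and Fosb and Jund did not pass. Changes were tested with edgeR's quasi-likelihood test on 14655 genes at a Benjamini-Hochberg adjusted p of 0.05. All 10 members passed the filter on low counts, Fosl1 only through its CLP libraries. The 6 members that rose compare with 24.9% of all genes tested, and the 2 that fell with 29.5%, so that 8 of 10 members were called where 54.3% of all genes were. Ranges of CPM were apart for the same 8 members, against 22.1% of genes tested upward, 27.3% downward and 49.5% in either direction. The median log2 fold change of the members was 1.57, against -0.04 over all genes tested. Log2 fold changes below are CLP over Sham, with SE.

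**Figure D1:**
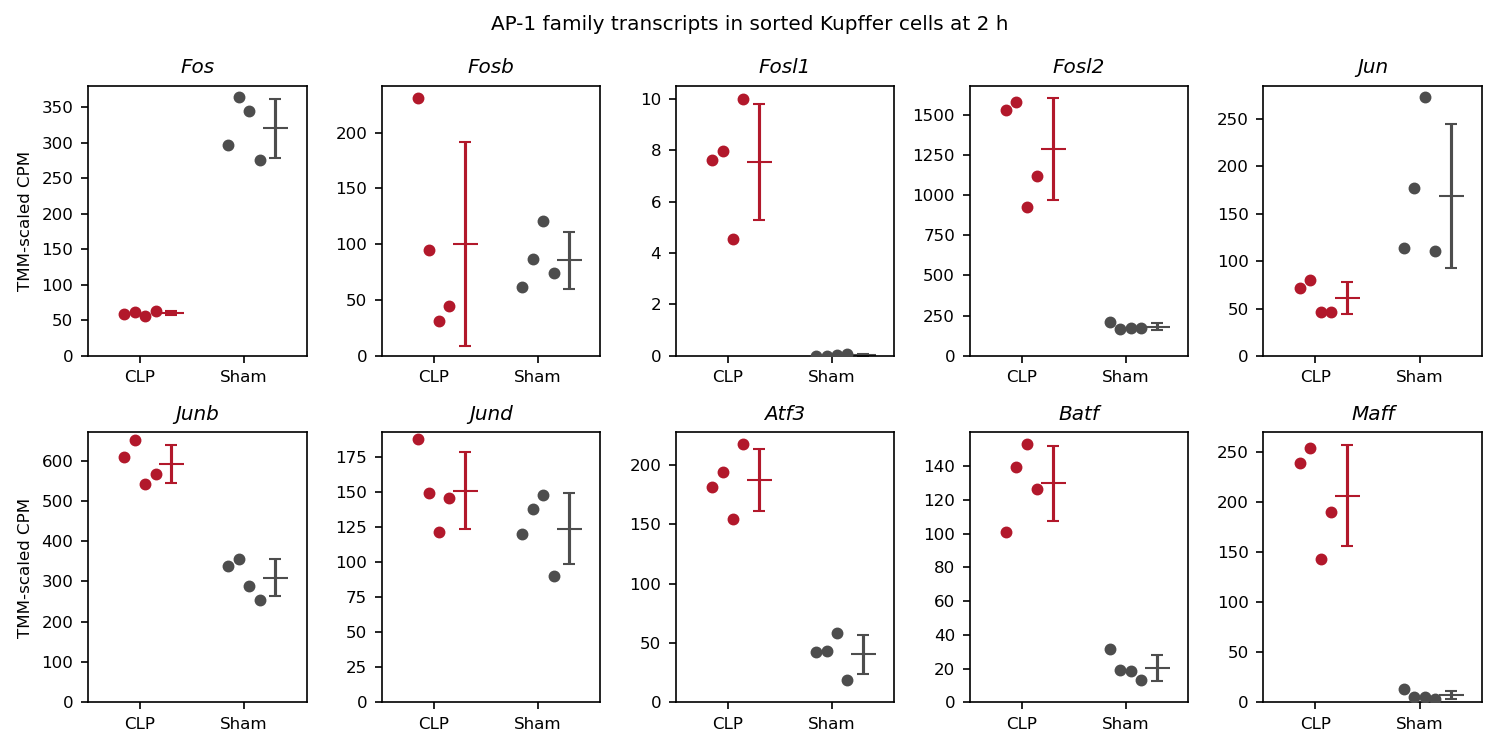
TMM-scaled CPM of each member in the 4 CLP libraries (red, replicates 1 to 4 from left to right) and the 4 Sham libraries (grey), each panel from 0 on its own axis. Bars give the mean and SD. Fos sat between 56.8 and 63.4 CPM in CLP, against between 275 and 364 CPM in Sham, while Maff and Fosl2 were higher in every CLP library, and Fosb was highest in CLP replicate 1.

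Among the FOS subunits, Fos (ENSMUSG00000021250), the founding member and partner of JUN, had 59.7, 61.3, 56.8 and 63.4 CPM in CLP replicates 1 to 4, against 297, 364, 345 and 275 CPM in Sham. Every CLP library was far below every Sham library, and the CLP values lay close together, at 60.3 ± 2.76 CPM in CLP, against 320.5 ± 41.4 CPM in Sham (SD, n = 4 each). The log2 fold change was -2.41 ± 0.12 (edgeR adjusted p = 1.1e-06), which placed Fos at percentile 2.42 of the fold changes of all genes tested. The fall was as large without CLP replicate 1, at -2.40.

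Fosl2 (ENSMUSG00000029135) encodes FRA2, a FOS relative without the C-terminal activation domain of FOS. It had 1528, 1579, 924 and 1121 CPM in CLP, against 211, 166.5, 173 and 175.5 CPM in Sham. The groups were far apart, and the first 2 CLP libraries were above the others. The log2 fold change was 2.83 ± 0.19 (edgeR adjusted p = 3.3e-06), or 7.10-fold.

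Fosl1 (ENSMUSG00000024912) encodes FRA1, the other truncated FOS relative, and is itself a target of AP-1. It was nearly undetected in Sham, with 0, 0, 1 and 3 counts, and had 183, 152, 99 and 205 counts in CLP. In CPM this was 7.62, 7.96, 4.53 and 10.00 in CLP and at most 0.0917 in Sham. Pooled counts of 639 in CLP and 4 in Sham gave a ratio of 239 after scaling, with an exact 95% interval of 93.1 to 882 that covers counting error only. Its fitted log2 fold change of 7.71 ± 0.55 (edgeR adjusted p = 3.8e-06) rests on those few Sham counts. Ccdc85b, on the other strand, shares 1163 exon bases with Fosl1 in GENCODE M21 and had 141 counts in CLP and 702 in Sham, opposite to Fosl1, and the strand setting of the count is not given.

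Fosb (ENSMUSG00000003545), whose splice forms include a truncated ΔFOSB, had 231, 95, 30.9 and 44.4 CPM in CLP, against 61.7, 86.3, 121 and 74.2 CPM in Sham. The CLP libraries spread over a wider range than the Sham libraries and overlapped them, with replicate 1 at 4.06 times the mean of the other 3. The log2 fold change was 0.23 ± 0.52 (edgeR adjusted p = 0.733) with approximate 95% limits of -0.80 and 1.25. Without CLP replicate 1 the mean was 56.8 ± 33.8 CPM in CLP, against 85.8 ± 25.5 CPM in Sham. The log2 fold change was then -0.60 ± 0.37 (edgeR adjusted p = 0.194).

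Of the JUN subunits, Jun (ENSMUSG00000052684), the strongest activator of the group, had 72.0, 79.6, 46.3 and 46.7 CPM in CLP, against 113.6, 177, 273 and 111 CPM in Sham. The groups did not overlap, and Sham replicate 3 was the highest of its group. Jun fell with a log2 fold change of -1.46 ± 0.30 (edgeR adjusted p = 0.0021). Its antisense gene Junos shares 232 exon bases with it and had 38 counts in CLP and 168 in Sham, beside 5219 counts of Jun in CLP and 21316 in Sham.

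Junb (ENSMUSG00000052837), a weaker activator that can hold JUN back, had 608, 649.9, 542 and 566 CPM in CLP, against 337, 355, 289 and 255 CPM in Sham. All CLP libraries were above all Sham libraries. The log2 fold change was 0.94 ± 0.13 (edgeR adjusted p = 0.00018). Under total-count scaling it was 0.38 (edgeR adjusted p = 0.0118), so its size depends on the scaling. Prdx2 on the other strand shares 173 exon bases with Junb and had 5189 counts in CLP and 7703 in Sham.

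Jund (ENSMUSG00000071076), the JUN protein found at steady levels in resting cells, had 188, 149.9, 121.7 and 146 CPM in CLP, against 120.3, 138, 148 and 90.2 CPM in Sham. The groups overlapped, and the log2 fold change of 0.29 ± 0.17 did not pass (edgeR adjusted p = 0.185) with approximate 95% limits of -0.05 and 0.63. It passed as higher with a correction for GC content (0.64, edgeR adjusted p = 0.0053) and was -0.27 with total-count scaling, so no direction is given. Its transcripts, at 67.1% GC, were the most GC-rich of the family. Gm11175 on the other strand shares 877 exon bases with Jund and had 85 counts in CLP and 147 in Sham.

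Of the partners outside the FOS and JUN groups, Maff (ENSMUSG00000042622) encodes a small MAF protein with no activation domain, which pairs with itself, with FOS or with the NRF2 and BACH factors. It had 239, 254, 143 and 190.2 CPM in CLP, against 13.0, 5.88, 5.90 and 3.58 CPM in Sham. The lowest CLP library was far above the highest Sham library, which was Sham replicate 1. Maff rose with a log2 fold change of 4.86 ± 0.39 (edgeR adjusted p = 6.3e-06), a 29.1-fold difference at percentile 99.5 of all genes tested.

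Batf (ENSMUSG00000034266), a short bZIP protein that pairs with JUN and works with IRF factors in lymphocytes and dendritic cells, had 100.6, 139, 153 and 126 CPM in CLP, against 31.4, 19.0, 18.4 and 13.5 CPM in Sham. CLP replicate 1 was the lowest of its group and still above every Sham library. The log2 fold change was 2.66 ± 0.24 (edgeR adjusted p = 1.4e-05).

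Atf3 (ENSMUSG00000026628), a stress-induced factor that represses inflammatory genes in macrophages stimulated through Toll-like receptors, had 182, 194, 154.6 and 217 CPM in CLP, against 42.2, 43.6, 58.0 and 18.6 CPM in Sham. The groups did not overlap, and the Sham libraries differed more among themselves, relative to their mean, than the CLP libraries. Atf3 rose with a log2 fold change of 2.20 ± 0.29 (edgeR adjusted p = 0.00011), or 4.60-fold.

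**Figure D2:**
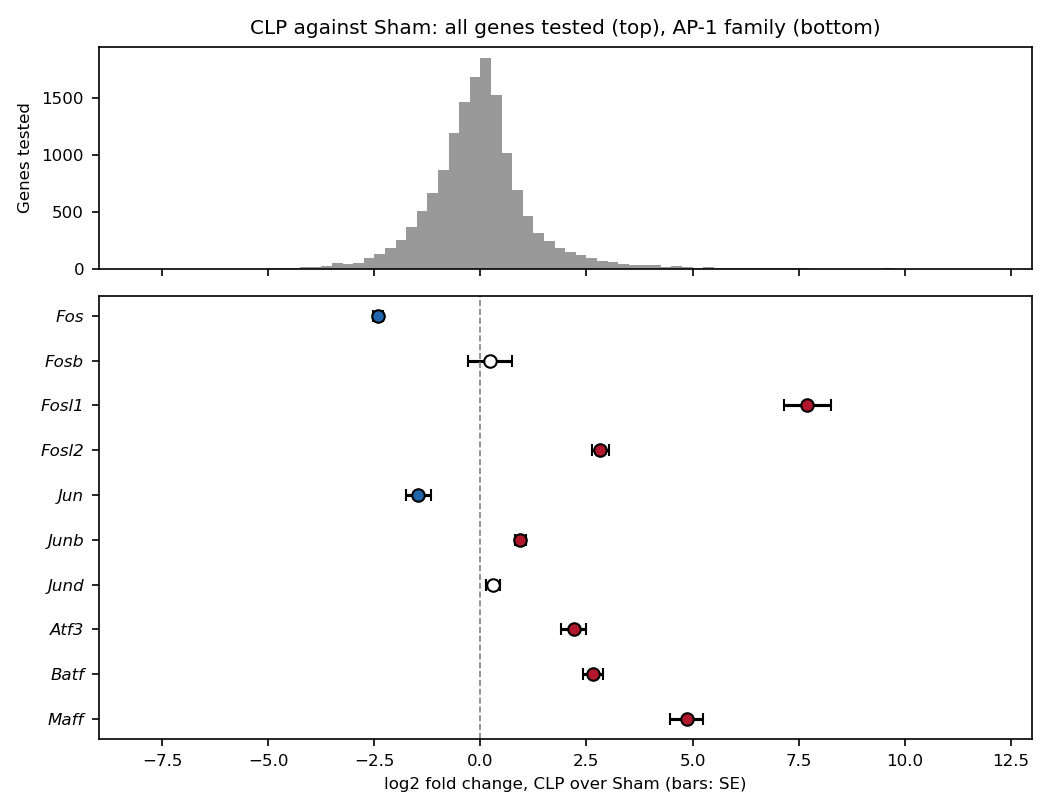
Log2 fold changes of CLP over Sham, as a histogram of all 14655 genes tested (top, in steps of equal width) and for each member with SE bars (bottom; red higher, blue lower, white not passed). Fosl1 at 7.71 and Maff at 4.86 lie in the upper tail of the histogram and Fos at -2.41 in the lower tail.

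To compare levels between genes, CPM were divided by the length of the merged exons in kb. In CLP, Junb led at 257 ± 20.6 CPM per kb and Fosl2 came next at 133 ± 32.8 CPM per kb. Batf, Jund, Atf3 and Maff lay between 79.6 and 92.2 CPM per kb in CLP and could not be ordered within their spread, while Fos was at 25.6 ± 1.17, Jun at 19.2 ± 5.39 and Fosb at 16.1 ± 14.6 CPM per kb. The order was different in Sham, where Fos and Junb were the most abundant members, at 136 ± 17.6 and 134 ± 19.8 CPM per kb, which did not differ beyond their spread. They were followed by Jund at 74.4 ± 15.1 and Jun at 52.9 ± 23.9 CPM per kb, also within each other's spread. Atf3, Fosl2, Batf and Fosb formed a lower tier in Sham, between 13.7 and 18.9 CPM per kb, above Maff at 2.73 CPM per kb and Fosl1.

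The share of each member in the summed CPM per kb does not depend on how libraries are scaled. Fos took 2.91, 2.92, 3.52 and 3.51% of this pool in CLP, against 27.5, 30.1, 27.9 and 31.9% in Sham. Fosl2 took 16.4 ± 2.18% in CLP and 4.11 ± 0.857% in Sham, and Jun took 2.35 ± 0.410% in CLP and 11.1 ± 3.68% in Sham. The share of Junb was similar, at 32.1 ± 1.69% in CLP and 29 ± 3.53% in Sham, with overlapping libraries. Atf3, Batf and Maff took 10.9, 11.7 and 9.79% in CLP, against 3.92, 3.15 and 0.585% in Sham.

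Within the FOS subunits, the ratio of Fosl2 to Fos per kb was 5.18 ± 1.23 in CLP and 0.140 ± 0.0286 in Sham, so that Fosl2 exceeded Fos in every CLP library and Fos exceeded Fosl2 in every Sham library. The ratio of Junb to Jun was 14.0 ± 2.90 in CLP and 2.89 ± 1.10 in Sham, again without overlap. FOS subunits summed over JUN subunits gave 0.480 ± 0.0762 in CLP and 0.652 ± 0.0571 in Sham. Without division by exon length this ratio was 1.79 in CLP and 0.992 in Sham, so the order of the groups turned over and no direction is given. The summed level of the family was 804 ± 96.4 CPM per kb in CLP and 467 ± 72.9 CPM per kb in Sham. These values have no test, since they are sums and ratios over chosen members, and they divide by exon lengths that run up to 9680 bases for Fosl2.

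**Figure D3:**
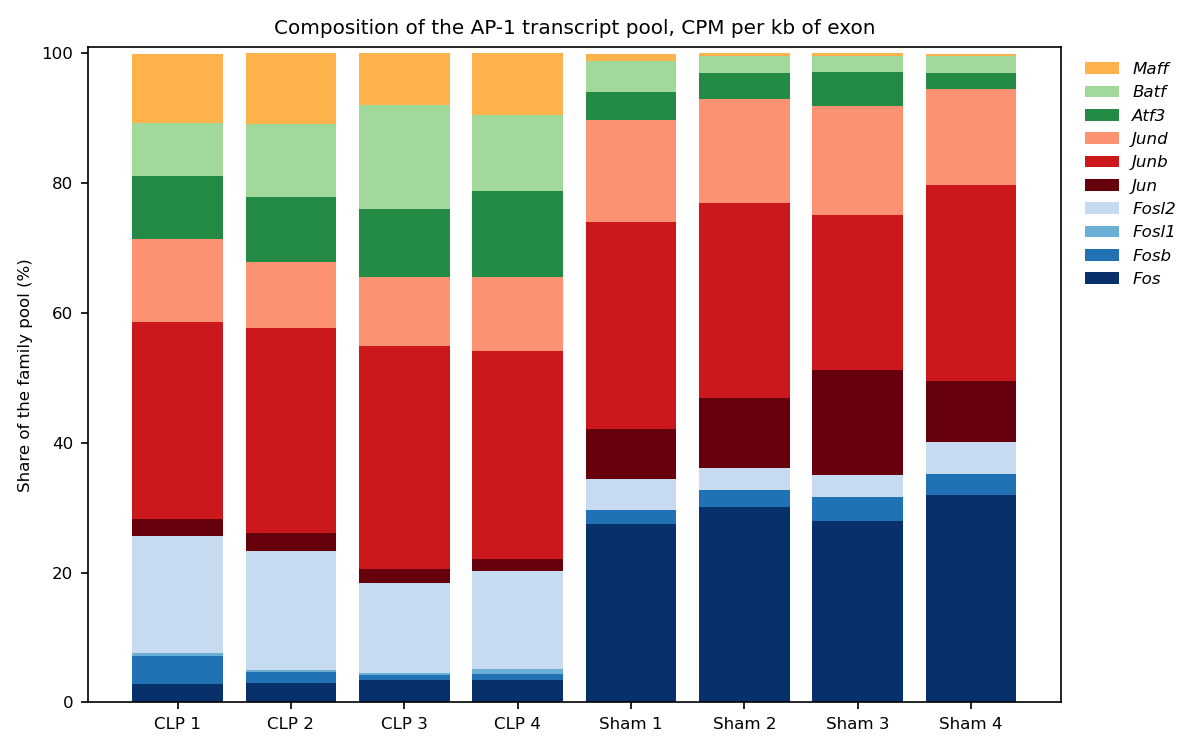
Share of each member, in percent of the summed CPM per kb of exon, in each CLP library (left 4 bars) and each Sham library (right 4 bars). Fos, at the base of the bars, is a thin band of 2.91 to 3.52% in CLP and a wide band of 27.5 to 31.9% in Sham, while Fosl2, Atf3, Batf and Maff are wider in CLP.

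Other bZIP genes that pair with these subunits or share their sites moved in both directions. Of 23, 15 rose, 5 fell and 3 did not pass, where 24.9% of all genes tested rose and 29.5% fell. Their median on the log2 scale was 0.82. With total-count scaling 11 were higher and 7 lower. The 3 with the smallest p were Nfil3, a repressor of cytokine and clock genes, at 180.4 ± 24.5 CPM in CLP, against 11.2 ± 3.62 CPM in Sham, Bach1, a heme-sensitive partner of the small MAF proteins, at 1988 ± 372 CPM in CLP, against 187 ± 38.9 CPM in Sham, and Cebpa, which fell to 14.97 ± 2.09 CPM in CLP, against 156 ± 41.2 CPM in Sham. The genes of the next sentences were picked after their values were seen. The small MAF genes Mafk and Mafg rose with Maff, with log2 fold changes of 1.84 ± 0.13 and 0.67 ± 0.17, but much less, and Mafg did not pass with total-count scaling (edgeR adjusted p = 0.579). Maf, a large MAF gene whose protein has an activation domain, fell to 140.2 ± 54.2 CPM in CLP, against 796 ± 86.7 CPM in Sham. Jdp2, a repressor that pairs with JUN, rose by 1.69 ± 0.29 on the log2 scale, Crem by 2.86 ± 0.35 and Creb5 by 2.67 ± 0.22, whereas Creb1 had -0.93 ± 0.10. Batf2 and Batf3 rose by 1.20 ± 0.16 and 0.82 ± 0.24, less than Batf itself, and Batf3 did not pass with total-count scaling (edgeR adjusted p = 0.362). Atf2, which pairs with JUN on cAMP response elements, did not pass (-0.09 ± 0.10, edgeR adjusted p = 0.447), but was lower with total-count scaling (-0.65). Atf5 (0.12 ± 0.16) and Bach2 (0.16 ± 0.20) did not pass either, and both turned negative with that scaling.

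Of 19 genes of the MAP kinase cascades that phosphorylate FOS, JUN and ATF2, 10 rose, 4 fell and 5 did not pass (median 0.42). Among all genes tested 24.9% rose and 29.5% fell, so calls in both directions are not particular to this list. Map2k3, a kinase of p38, stood at 468 ± 33.4 CPM in CLP, against 54.7 ± 14.0 CPM in Sham, while Mapk14, which encodes p38 alpha, fell to 70.8 ± 9.36 CPM in CLP, against 188 ± 13.8 CPM in Sham. Map3k2 rose by 1.46 ± 0.15. With total-count scaling 4 of this list were higher and 9 lower, so the balance of the list depends on the scaling.

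Of 9 SRF and MEF2 factors, which switch on Fos and Jun, 5 rose, 1 fell and 3 did not pass (median 0.58). The shares of all genes tested were 24.9% higher and 29.5% lower. Srf rose by 1.39 ± 0.13 and its partner Elk1 by 0.80 ± 0.12 on the log2 scale. The SRF coactivator Mrtfb fell (-0.68 ± 0.10), at 27.5 CPM in CLP, against 44.0 CPM in Sham. Mrtfa, named here as the other such coactivator, rose (0.75 ± 0.25, edgeR adjusted p = 0.0289), at 276.5 CPM in CLP, against 164.7 CPM in Sham. Elk3, Elk4 and Mef2a lay between -0.04 and 0.15. Elk1 did not pass with total-count scaling (edgeR adjusted p = 0.111), where 2 of the list were higher and 4 lower.

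Of 10 genes of decay through AU-rich elements, a route that removes Fos mRNA, 4 rose and 1 fell (median 0.20). For this list and the next, the shares of all genes tested were 24.9% higher and 29.5% lower. Zfp36, tristetraprolin, stood at 936 ± 134.5 CPM in CLP, against 281 ± 36.8 CPM in Sham, Zfp36l2 was the gene that fell (-1.63 ± 0.20), and the stabilising factor Elavl1 rose by 0.66 ± 0.11, though not with total-count scaling (edgeR adjusted p = 0.392). Under that scaling 1 of the list was higher and 6 lower. Of 4 ubiquitin ligase genes that act on JUN protein, 0 rose and 3 fell: Det1 (-1.47 ± 0.15), Itch (-1.06 ± 0.21) and Fbxw7 (-0.37 ± 0.12). Fbxw7 missed the threshold without CLP replicate 2 (edgeR adjusted p = 0.0777), CLP replicate 4 (0.0615), Sham replicate 2 (0.0671) or Sham replicate 3 (0.0701). Cop1, which works with Det1, did not pass (0.11 ± 0.15).

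Among 22 genes known as AP-1 targets, 15 were tested. Of these, 13 rose and 0 fell, where 24.9% of all genes tested rose and 29.5% fell. The other 2, Ccnd1 and Spp1, did not pass. The 7 not tested had too few counts. Among those with the smallest p were Plaur, the urokinase receptor, at 434 ± 95.4 CPM in CLP, against 13.2 ± 5.25 CPM in Sham, and the collagenase Mmp13, at 462.5 ± 244 CPM in CLP, against 14.6 ± 4.45 CPM in Sham. The median log2 fold change of those tested was 3.15. Most of these promoters also answer to NF-kB, and binding of either factor was not measured.

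**Figure D4:**
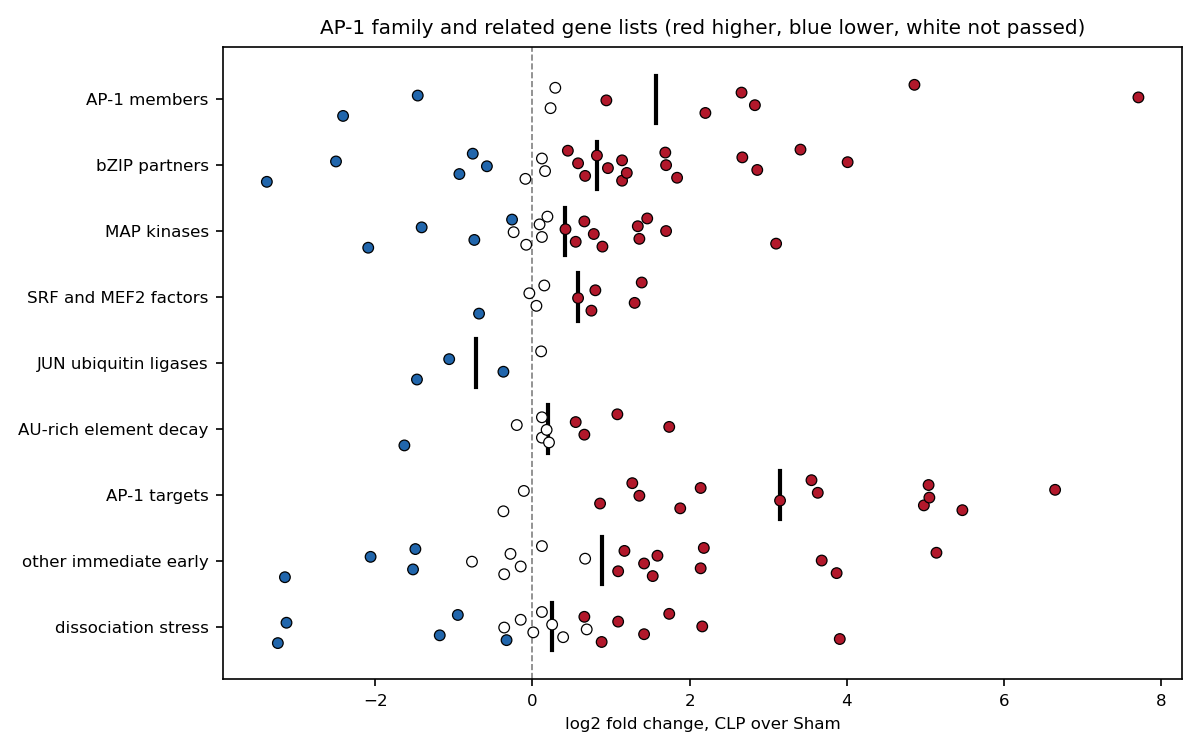
Log2 fold changes of CLP over Sham for the members and 8 lists of related genes, 1 point a gene tested (red higher, blue lower, white not passed at an edgeR adjusted p of 0.05), with black ticks at the medians. The members spread on both sides of 0, with a median of 1.57, while the points of the AP-1 target list lie at or above 0.86 apart from Ccnd1 and Spp1.

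Fos and Jun are also among the genes that tissue digestion and sorting switch on, and so a list of other such genes was read beside them. Of 19, 7 rose, 5 fell and 7 did not pass (median 0.25), against 24.9% higher and 29.5% lower among all genes tested. The summed level was 8671 to 10550 CPM in CLP, against 3385 to 4328 CPM in Sham. Highest in CLP were Socs3 (2553 CPM, against 170 CPM in Sham), Dusp1 (1800 CPM, against 670.5 CPM) and Nfkbia (1681 CPM, against 377 CPM). These few genes weigh most in the sum. The genes that rose included Socs3 (3.91 ± 0.35), Nfkbia (2.16 ± 0.14) and Zfp36, which are also targets of inflammatory signals. Of the 10 heat shock genes in the list, 5 fell (Hspa1a, Hspa1b, Dnajb1, Hspe1 and Hsph1), and Hsp90aa1, Hsp90ab1, Dnaja1 and Hspb1 did not pass. Hspa8, the most abundant of them, rose to 1088 ± 136.6 CPM in CLP, against 687 ± 147 CPM in Sham (edgeR adjusted p = 0.0062). Of the immediate early genes that this list shares with the next, Ier2 (1.09 ± 0.16) and Dusp1 (1.42 ± 0.13) rose. Egr1 (0.12 ± 0.17), Nr4a1 (-0.15 ± 0.27) and Btg2 (-0.36 ± 0.16) did not pass. These heat shock and immediate early genes were picked after their values were seen. Hspa1a and Hspa1b fell the most, at 12.4 ± 4.95 and 9.49 ± 5.18 CPM in CLP, against 109 ± 69.6 and 89.3 ± 65.5 CPM in Sham. Reads of this near-identical pair may have been split between them. Sham replicate 3 was the highest library for both. It had 205.3 CPM of Hspa1a, against 49.7 to 111.9 CPM in the rest of Sham. For Hspa1b it had 181.3 CPM, against 35.0 to 89.5 CPM in the rest of Sham. Jun was also highest in that library, at 273 CPM, while Fos was highest in Sham replicate 2, at 364 CPM. The part of cell isolation in the levels of Fos and Jun was not tested.

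Among 20 immediate early genes outside the AP-1 family, 10 rose, 4 fell and 6 did not pass (median 0.88). The shares of all genes tested were 24.9% higher and 29.5% lower. The orphan receptor gene Nr4a3 had a log2 fold change of 5.14 ± 0.33 and the zinc finger gene Egr2 one of 3.68 ± 0.25, and Ccn1, a matricellular protein gene driven by serum response, fell to 2.31 ± 0.466 CPM in CLP, against 20.5 ± 3.82 CPM in Sham.

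By the distance between centred log2 CPM profiles over the 8 libraries, among 7924 genes with a mean of at least 10 CPM, the nearest to Fos were Zfp90 (distance 0.381 log2 units, log2 fold change -2.41), Tfeb (0.516, -2.47) and Xpc (0.559, -2.21). For Jun they were Dusp7 (0.556), Id1 (0.609) and Zfp36l2 (0.695), and for Maff Dusp2 (0.661), Plaur (0.666) and Gm20186 (0.745). Atf3 had no neighbour as close, with Sbno2 at 0.889, Gm14636 at 0.947 and Ier3 at 0.959.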

How the data were processed

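Read counts per Ensembl gene for 8 libraries were deposited by the authors and were used as whole counts. Per the submitters' processing notes, upstream tools were FastQC, STAR 2.7.10b, featureCounts and DESeq2, with build mm39. Libraries were TruSeq stranded, per the labels' protocols. The sources used here do not give the tools' parameters, the annotation release or the strand setting of the counting. Symbols, exon lengths and GC content came from GENCODE M21 (GRCm38), and 52081 IDs (99.8% of counts) had a symbol.

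After filterByExpr and TMM scaling, CLP and Sham counts were compared in edgeR 4.0.16 (R 4.3.3; robust quasi-likelihood F-test with no covariate), with p-values adjusted by Benjamini-Hochberg over 14655 genes. SEs are approximate and were obtained by dividing the absolute log2 fold change by the root of F. The script was tested on simulated data. No replicate pair agreed within sampling noise (chi-square per degree of freedom at least 19.5). Alternatives used DESeq2 1.42.0, limma 3.58.1 (voom), 3 scalings, 2 filters, a replicate block and leaving out each library.

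The members and lists were chosen with earlier results of these data known. Named genes are the members, the 3 smallest p of each function list with any member of a count of 3 or fewer, and the 3 nearest profiles of Fos, Jun, Atf3 and Maff. The rule also names the 2 most abundant genes of each cell type list. Here they are named only for the Kupffer, neutrophil, platelet, endothelial and monocyte lists, in part, and summed levels stand for the rest. Exceptions are stated beside them. Some genes that the rule names are not reported here.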

Additional observations from a re-analysis of the deposited data

Results flagged for a closer look

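In Sham replicate 1 the share of Batf in the family pool was 4.86%, against 2.49 to 2.62% in the other 3 Sham libraries, and the share of Maff was 1.09%, against 0.376 to 0.441%. Each stood farther from the rest of its group than Dixon's 95% value allows. In 40 groups of 4 values examined, chance alone flags about 1 in 20.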

How the results depend on the processing

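The 6 rises and 2 falls among the members kept direction and side of the threshold under all 16 alternatives, and 154 of 160 member values did. Ranges of the log2 fold change were -2.97 to -2.33 for Fos, -2.04 to -1.13 for Jun, 7.19 to 8.95 for Fosl1, 2.27 to 2.96 for Fosl2, 0.38 to 1.23 for Junb, 1.64 to 2.42 for Atf3, 2.11 to 2.95 for Batf and 4.32 to 5.36 for Maff. Fosb turned to -0.34 with total-count scaling, -0.18 with the replicate block, -0.17 with voom and -0.60 without CLP replicate 1, and ranged from -0.60 to 0.53 on leaving out single libraries.

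With total-count scaling the median of all genes tested was -0.60 rather than -0.04. It called 8292 genes lower and 1715 higher, an upward share of 17.1% rather than 45.8%. It turned Jund to -0.27, Clec4f to -0.28, Cd5l to -0.27, Cop1 to -0.46, Atf1 to -0.10, Atf5 to -0.45 and Bach2 to -0.39. Under it, list counts were 4 higher and 9 lower for MAP kinases, 2 and 4 for SRF and MEF2 factors, and 1 and 6 for decay genes, with 8 lower for other immediate early genes, 8 for dissociation genes and 1 for AP-1 targets. Cop1 ranged from -0.01 (without CLP replicate 2) to 0.23 on leaving out single libraries.

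Leaving out 1 library at a time gave 3244 to 4235 genes higher, 3716 to 4997 lower and 0 to 1 AP-1 targets lower, the 1 without CLP replicate 1.

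Without exon length, the pool shares were 2.22% in CLP and 25.6% in Sham for Fos, 45.9% and 14.7% for Fosl2, and 21.6% and 24.7% for Junb, since long transcripts then weigh more. The ratio of Fosl2 to Fos was then 21.3 in CLP and 0.577 in Sham, that of Junb to Jun 10.1 and 2.08, and that of FOS to JUN subunits 1.79 and 0.992, the last in the opposite order.

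Replicate numbers did not pair the libraries: same-numbered deviations correlated at -0.125 to 0.172. The replicate block gave 3491 genes higher and 4303 lower and changed no member's call. Counts of 4 for Fosl1 in Sham limit its fold change.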
